A study of Mus musculus with 5 samples.

Results

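The 9 genes described here belong to the complement system: C1qa, C1qb and C1qc, C4b, C3, C3ar1, C5ar1, Cfp and Cfb. They were chosen by symbol, for their place in the pathway and with earlier results of these data known, among 17661 genes with at least 1 UMI (a counted cDNA molecule) in the deposited tables. Levels are given as UMIs per 10000 UMIs of the same cells. The material was single cells sorted as CD45high and CD11bhigh from brains of DM-hTAU mice, which carry a human tau transgene with a pair of mutations linked to frontotemporal dementia, and profiled by MARS-seq, a plate method that reads transcript 3' ends. All 5 libraries were labelled aPDL1 (antibody against PD-L1) and 9 months of age, although the study's text also names a control antibody among the sorted mice, so there was a single group and no treatment, genotype or age could be compared. The labels name brain as the tissue, but the preparation text given with them describes thymus and small intestine. The mice were heterozygous on a BALBc-C57/BL6 background, with the transgene driven by the tau gene's own promoter, and nothing in the labels ties the libraries to separate mice.

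The comparison made was among the myeloid cell classes of the gate, which is meant to enrich macrophages derived from blood monocytes. A floor of 500 UMIs left 825 of the 1900 cells sorted, namely 68, 87, 285, 71 and 314 in libraries 1 to 5. The libraries held 128201 to 549824 UMIs, and the median cell kept held 1015, with libraries 1, 2 and 4 shallower (medians 651 to 759) than libraries 3 and 5 (1168 and 1268). The same 384 cell barcodes serve every library, as in any set of such plates. Cells were classed by summed markers: 157 microglia-like, 149 border macrophage-like (Pf4, Mrc1, Lyve1, Cbr2 and others, markers known from macrophages of the meninges and vessels), 190 MHC class II-high with no other marker set raised, 56 dendritic-like, 50 monocyte-like and 22 neutrophil-like. The study itself reads cells with Mrc1, Lyve1, Stab1 and Siglec1 as infiltrating macrophages derived from monocytes. For that reading it also used bone marrow chimeras with GFP-labelled donor cells. It found GFP+ cells in this sort gate, at a share that it reports to match the extent of chimerism, and MSR1 staining on GFP+ cells. The class name used here stands for markers only, and the origin of the cells in each class was not tested here. Of the markers of each class, 12 of 12, 9 of 9, 5 of 7, 10 of 10, 7 of 7 and 13 of 13 were raised 2-fold or more over the other cells, which the gates themselves used. A further 50 cells lay between gates and 151 reached no gate. The sort antigen's own gene, Itgam (CD11b), had UMIs in all 6 classes, at 2.87 to 8.26 per 10000.

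Complement is a cascade of plasma proteins that tags cells and debris for uptake. In its classical arm, C1q, a molecule assembled from A, B and C chains, binds a target and leads to the cleavage of C4 and then of C3, whose fragments opsonize the target and signal through receptors such as C3ar1, while C5ar1 binds a fragment of C5. Factor B (Cfb) and properdin (Cfp) belong to the alternative arm, which amplifies C3 cleavage. In the brain, C1q comes mainly from microglia and other resident macrophages, and C1q and C3 are known for marking synapses for removal by microglia.

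The C1q genes lie side by side on the minus strand of chromosome 4, in the order C1qa, C1qc, C1qb along that strand. In the GENCODE annotation of GRCm38 (mm10), C1qa covers chr4:136895917-136898803, C1qc chr4:136889804-136893065 and C1qb chr4:136880129-136886187, each with 3 exons. The stretches between them are 2851 and 3616 bases, and the whole cluster spans 18675 bases. C4b (chr17:34728380-34743882) and Cfb (chr17:34856374-34862518) lie 112491 bases apart in the MHC region of chromosome 17, and 85 bases separate Cfb from the neighbouring C2 gene on the same strand. C3 lies at chr17:57203970-57228136, C3ar1 at chr6:122847138-122856161, C5ar1 at chr7:16246743-16259540 and Cfp at chrX:20925454-20931555.

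RefSeq promoter windows, 250 bases before to 50 after each start, matched 6 of the 9 genes (C1qb, C1qc, C3, C3ar1, C5ar1, Cfp). The windows of C1qb and C1qc are given because their levels went together across classes, and that of Cfp because its level went the other way. Capitals mark GAGGAA or GGAAGT on either strand, core letters of sites for ETS factors such as PU.1, a factor of the myeloid lineage.
C1qb (chr4:136886151-136886450, GRCm38.p6, minus strand): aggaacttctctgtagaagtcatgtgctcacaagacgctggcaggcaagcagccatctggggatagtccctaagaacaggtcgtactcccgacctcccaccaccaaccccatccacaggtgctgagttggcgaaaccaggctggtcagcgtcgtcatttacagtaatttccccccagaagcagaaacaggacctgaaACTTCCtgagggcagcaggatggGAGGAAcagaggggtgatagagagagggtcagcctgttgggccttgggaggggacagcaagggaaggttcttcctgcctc
C1qc (chr4:136892865-136893164, GRCm38.p6, minus strand): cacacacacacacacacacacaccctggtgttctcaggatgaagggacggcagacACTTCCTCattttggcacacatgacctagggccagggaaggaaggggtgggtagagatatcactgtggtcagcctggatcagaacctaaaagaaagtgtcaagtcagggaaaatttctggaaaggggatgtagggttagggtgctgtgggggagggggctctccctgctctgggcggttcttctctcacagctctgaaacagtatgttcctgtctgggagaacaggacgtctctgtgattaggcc
Cfp (chrX:20931506-20931805, GRCm38.p6, minus strand): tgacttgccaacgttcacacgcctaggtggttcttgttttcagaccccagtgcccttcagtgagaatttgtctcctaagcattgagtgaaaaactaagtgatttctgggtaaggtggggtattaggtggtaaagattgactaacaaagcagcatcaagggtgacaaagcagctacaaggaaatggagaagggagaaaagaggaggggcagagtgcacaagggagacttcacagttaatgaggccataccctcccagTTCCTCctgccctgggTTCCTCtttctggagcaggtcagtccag
GAGGAA was found in 3 of the 6 windows (C1qb, C1qc, Cfp) and in 28.3% of all 32851 promoter windows of that length, and GGAAGT in 3 (C1qb, C1qc, C5ar1) and in 23.8%. In C1qc the reverse complements of both overlap in a single run of 8 capitals. The AP-1 type letters TGACTCA were found in C3ar1 alone among the 6, and in 5.2% of all windows.

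C1q transcripts were abundant in microglia-like, border macrophage-like and MHC class II-high cells and low in dendritic-like, monocyte-like and neutrophil-like cells. Summed over the 3 chains, microglia-like cells held 144 UMIs per 10000 with all cells pooled (exact Poisson 95% interval 139 to 150; 140 ± 14.0, SD over libraries, n = 5). Border macrophage-like cells held 129 (interval 124 to 135; 144 ± 25.8, n = 3) and MHC class II-high cells 92.7 (89.4 to 96.1; 103 ± 16.8, n = 4). Monocyte-like cells held 30.2 (26.2 to 34.6; 37.7 ± 15.1, n = 4), dendritic-like cells 24.5 (21.9 to 27.4; 27.1 ± 15.1, n = 4) and neutrophil-like cells 9.00, from 16 UMIs (5.15 to 14.6; 7.58 ± 1.21, n = 2). A library counted towards n where it held at least 5 cells of the class. The Poisson intervals cover counting error only.

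By library, the summed level in microglia-like cells was 123, 155, 152, 129 and 142 in libraries 1 to 5. Border macrophage-like cells reached 128, 174 and 130 in libraries 3, 4 and 5, a range that overlaps that of microglia-like cells. In the same libraries they were lower than microglia-like cells in 2 and higher in library 4, where only 5 cells were counted. MHC class II-high cells held 125, 107, 94.3 and 86.2 in libraries 1, 2, 3 and 5, and overlapped microglia-like cells through library 1 alone. Monocyte-like cells (25, 43.9, 56.2 and 25.8 in libraries 2 to 5) and dendritic-like cells (48.4, 26.6, 13.8 and 19.6) overlapped each other, and every library of either was below every library of the 3 higher classes. The neutrophil-like values, 8.44 and 6.73 in libraries 2 and 5, were below all of these.

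**Figure D1:**
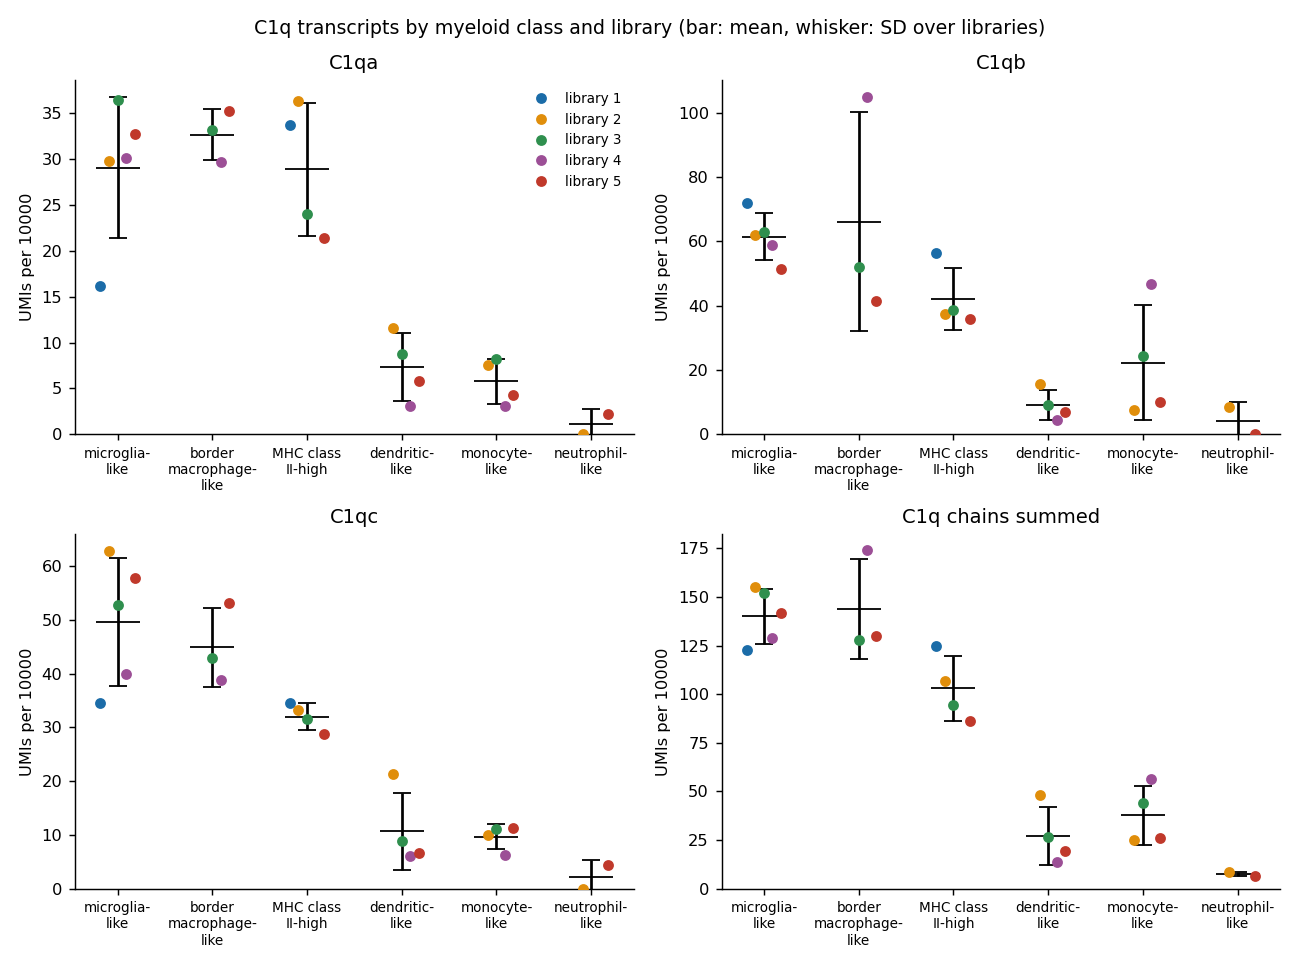
C1qa, C1qb, C1qc and their sum in UMIs per 10000 (vertical axes) in the 6 classes (horizontal axes), with a point for each library of at least 5 cells, a bar at the mean and whiskers for the SD over libraries. The summed level lies between 86.2 and 174 in the 3 classes on the left and between 6.73 and 56.2 in the 3 on the right.

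With all cells pooled, each chain was likewise higher in the first 3 classes. C1qa was at 32.5, 34.0 and 24.1 UMIs per 10000 in microglia-like, border macrophage-like and MHC class II-high cells and at 7.42, 5.35 and 1.13 in dendritic-like, monocyte-like and neutrophil-like cells. C1qb was at 58.3, 47.9 and 38.2 against 8.52, 14.1 and 5.63. C1qc was at 53.2, 47.3 and 30.5 against 8.60, 10.7 and 2.25. By library, C1qa and C1qc of every dendritic-like, monocyte-like and neutrophil-like sum lay below every sum of the first 3 classes. For C1qb, monocyte-like library 4 (46.8) lay above border macrophage-like library 5 (41.5) and MHC class II-high libraries 2, 3 and 5 (37.3, 38.7 and 36.0), so the groups overlapped there. All 3 chains thus had UMIs in all 6 classes, though in neutrophil-like cells only 2, 10 and 4.

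The classes were compared with microglia-like cells on UMIs summed per library and class, with library as a block, in edgeR's quasi-likelihood test with Benjamini-Hochberg adjustment over 2638 genes. Since cells of the classes come from the same plates, the p-values measure the spread between these libraries, which may be technical. Of the 9 genes, 6 had the 50 UMIs over the 22 sums needed for testing: C1qa, C1qb, C1qc, C3ar1, C4b and Cfp. C3, C5ar1 and Cfb did not.

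All 3 chains were called lower in dendritic-like cells. C1qb fell by 2.86 on the log2 scale (SE 0.342, adjusted p = 4.25e-14), C1qc by 2.63 (SE 0.347, adjusted p = 1.27e-11) and C1qa by 2.25 (SE 0.356, adjusted p = 4.77e-08) from microglia-like to dendritic-like cells in edgeR. With C3ar1, 4 of 6 tested complement genes were called lower, where 7.62% of all genes tested were, and 1 was called higher, where 5.72% were. The 1 called higher, Cfp, could be tested only through its UMIs in dendritic-like cells. The median log2 fold change was -1.96 over the 6 genes and -0.29 over all genes tested.

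Monocyte-like cells were also called lower in all 3 chains. C1qa fell by 2.76 (SE 0.399, edgeR adjusted p = 2.57e-09), C1qb by 2.08 (SE 0.339, adjusted p = 2.49e-07) and C1qc by 2.69 (SE 0.362, adjusted p = 7.30e-11). These 3 of 6 were called lower against 4.44% of all genes, and 0 were called higher against 2.20% (edgeR, with 1, Cfp, higher at an unadjusted p under 0.05, and 0 by DESeq2). The median was -1.61 over the 6 genes and -0.37 over all genes. Monocyte-like sums were the least clean by the other markers. Neutrophil markers ranged over libraries from 12.2 to 649 UMIs per 10000, the highest sum being above the 500 set for the neutrophil gate. Endothelial markers ranged from 2.5 to 10.7, from 3 of the 6 genes listed. Cldn5, Itm2a and Kdr had 0 UMIs, so the list as a whole does not show endothelial cells there. The part of other cells in the C1q level was not tested.

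In neutrophil-like cells C1qa fell by 5.85 (SE 0.883, adjusted p = 9.49e-09), C1qb by 3.64 (SE 0.582, adjusted p = 7.78e-08) and C1qc by 5.76 (SE 0.739, adjusted p = 4.65e-12) in edgeR. This comparison rests on 2 libraries with 17 neutrophil-like cells between them, and the median over all genes tested was itself -3.31, so the folds are to be read against that shift. Called lower were 3 of 6, beside 3.11% of all genes, and called higher 0, beside 1.10% (1, Cfp, at an unadjusted p under 0.05, and 0 by DESeq2). Without TMM scaling the medians of all genes moved by more than 0.1 in dendritic-like, monocyte-like and neutrophil-like cells, to -0.17, -0.09 and -2.98, and the 9 lower calls of C1q chains in those classes held. The balance of all genes called higher and lower then went from 151 and 201 to 230 and 193 in dendritic-like cells, from 58 and 117 to 96 and 82 in monocyte-like cells and from 29 and 82 to 42 and 52 in neutrophil-like cells. Without library 5 the C1qb value in neutrophil-like cells was -2.25 and no longer passed (adjusted p = 0.0574).

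Border macrophage-like and microglia-like cells were not told apart by C1q. The log2 fold changes were 0.03 (SE 0.345, edgeR adjusted p = 0.998) for C1qa, -0.16 (SE 0.328, adjusted p = 0.956) for C1qb and -0.25 (SE 0.334, adjusted p = 0.929) for C1qc, and their signs turned under other settings. In MHC class II-high cells the values were -0.20 (SE 0.319, adjusted p = 0.820) for C1qa, -0.57 (SE 0.293, adjusted p = 0.283) for C1qb and -0.80 (SE 0.305, adjusted p = 0.125) for C1qc. None of the 6 complement genes was called in that comparison, beside 1.97% of all genes higher and 1.93% lower. In edgeR 1 was higher (Cfp) and 1 lower (C1qc) before adjustment (p under 0.05), and DESeq2 called 1 lower. That result depends on the settings: C1qc passed the threshold in 8 of 17 alternatives, C1qb in 4 and C1qa in 1, always lower in MHC class II-high cells. Without library 1, whose MHC class II-high cells held the most C1q, C1qc was at -1.11 (adjusted p = 0.0396).

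**Figure D2:**
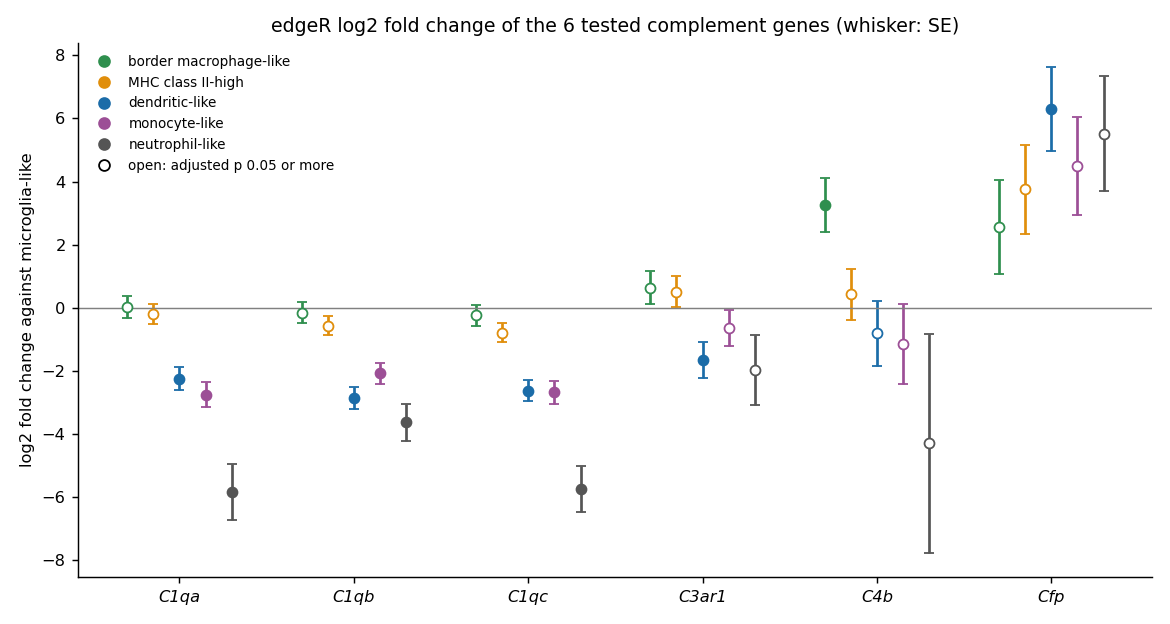
Log2 fold change (vertical axis) of the 6 tested complement genes (horizontal axis) in 5 classes against microglia-like cells, with SE whiskers and filled points where the edgeR adjusted p is under 0.05. The C1q chains are filled and negative in dendritic-like, monocyte-like and neutrophil-like cells, C4b is filled in border macrophage-like cells (3.25) and Cfp in dendritic-like cells (6.29, fitted against a class without a UMI).

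Single cells were then thinned to 500 UMIs each, so that depth (median 933 UMIs in microglia-like and 2160 in dendritic-like cells) was equal. At least 1 C1q UMI remained in 100% of microglia-like, 99.3% of border macrophage-like and 90.5% of MHC class II-high cells. The shares were 55.4% of dendritic-like, 56% of monocyte-like and 40.9% of neutrophil-like cells, where the unthinned share was 54.5%. Neutrophils are not known as a source of C1q, and the last value is read here as the background of these plates. The exact binomial intervals of the 3 lower classes overlap, so a share of cells with 1 UMI is not read as expression in them.

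The number of C1q UMIs per cell set the 3 higher classes apart from the 3 lower ones, while dendritic-like and monocyte-like cells changed places relative to the pooled levels. The mean number of thinned C1q UMIs was 7.36, 6.66 and 4.99 in microglia-like, border macrophage-like and MHC class II-high cells, and 1.5, 1.42 and 0.500 in dendritic-like, monocyte-like and neutrophil-like cells. UMIs of all 3 chains together were seen in 57.3% of microglia-like, 54.4% of border macrophage-like and 41.1% of MHC class II-high cells. They were seen in 8.93% (interval 2.96 to 19.6) of dendritic-like and 2.00% (0.0506 to 10.6) of monocyte-like cells, and in 0 of 22 neutrophil-like cells, which allows up to 15.4%. By library, the thinned mean ran from 6.48 to 7.76 in microglia-like cells and from 0.667 to 3.38 in dendritic-like cells, with library 2 the highest of the latter.

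**Figure D3:**
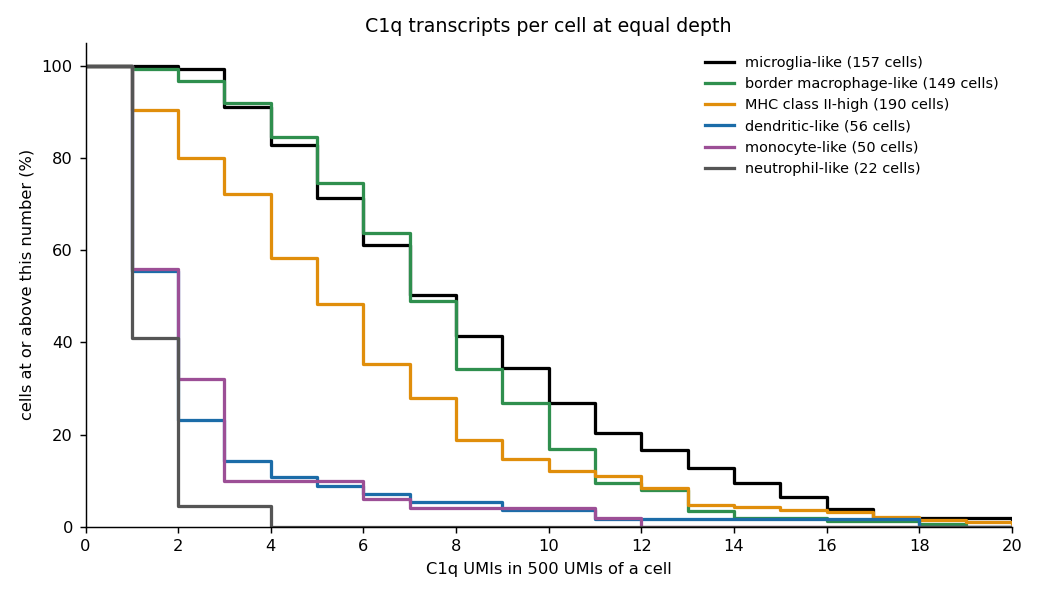
Share of cells (vertical axis, percent) holding at least the number of C1q UMIs on the horizontal axis after each cell was thinned to 500 UMIs, with a line for each class. The microglia-like and border macrophage-like lines lie close together up to 7 UMIs, the MHC class II-high line lies below both up to 10, and 23.2%, 32% and 4.55% of dendritic-like, monocyte-like and neutrophil-like cells hold 2 or more.

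C1q UMIs were also set against the UMIs of 12 microglia markers (P2ry12, Tmem119, Siglech and others) in the same cells. Microglia-like cells, whose ratio is lowered by being gated on those markers, held 0.597 C1q UMIs per marker UMI (exact interval 0.569 to 0.627). The ratio was 2.32 (2.14 to 2.51) in border macrophage-like and 2.70 (2.52 to 2.89) in MHC class II-high cells. Their libraries, at 1.95 to 2.70 and 1.84 to 3.17, lay above every library of microglia-like cells (0.380 to 0.657). The gates also limit the microglia markers in cells of these classes, which raises their ratio. The separation from microglia-like cells was thus partly set by the gates. Border macrophage-like and MHC class II-high cells held 55.7 and 34.4 marker UMIs per 10000, against 241 in microglia-like cells, at C1q levels of the same order.

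In dendritic-like and monocyte-like cells the ratio was 1.01 (0.858 to 1.18) and 1.10 (0.895 to 1.35), near the 1.20 of all kept cells together, and marker levels were 24.4 and 27.5 UMIs per 10000. Neutrophil-like cells had 0.444 (0.230 to 0.822), from 16 C1q and 36 marker UMIs, and 20.3 marker UMIs per 10000. The 3 lower classes thus carried microglia markers at similar levels, and C1q at 9.00 to 30.2 per 10000. The part of microglia RNA in the C1q of these 3 classes was not tested. The 20 empty wells held 2 to 68 UMIs each and 320 in all, of which 2 were C1qa, 4 C1qb and 0 C1qc, 2 were C3ar1 and 7 came from microglia markers. The other 5 genes, like C1qc, had 0 UMIs there, which at this depth allows up to 115 per 10000 (exact Poisson 95% limit). As a share of the few UMIs in empty wells, summed C1q was at 188 per 10000 (interval 68.8 to 408), from 6 UMIs. The 2 background measures, empty wells and neutrophil-like cells (9.00), thus differ widely in share.

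**Figure D4:**
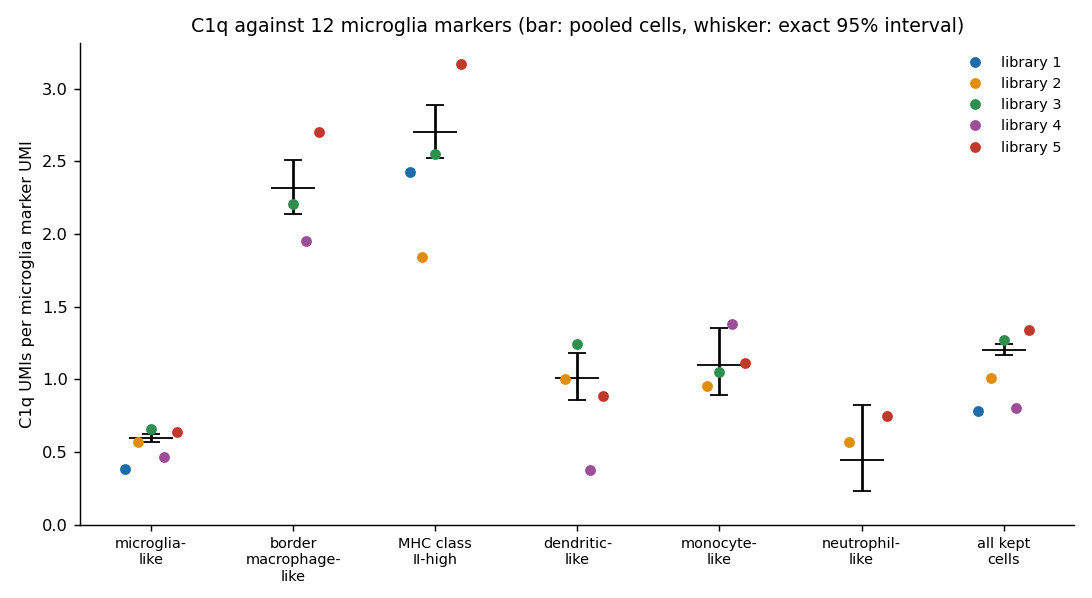
C1q UMIs per microglia marker UMI (vertical axis) in the 6 classes and in all kept cells (horizontal axis), with a point for each library, a bar for the pooled cells and whiskers for the exact 95% interval. Border macrophage-like and MHC class II-high cells lie between 1.84 and 3.17, and the other 4 classes between 0.375 and 1.38.

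With cells pooled, the shares of the chains differed among classes, and they also differed among libraries. C1qa made up 22.6%, 26.3% and 25.9% of C1q UMIs in microglia-like, border macrophage-like and MHC class II-high cells, and C1qc 36.9%, 36.6% and 32.9%. C1qb took 40.5% (exact interval 38.6 to 42.4), 37.1% (35.0 to 39.1) and 41.2% (39.4 to 43.0). The last 2 intervals do not overlap, but they cover counting error of pooled UMIs only. In library 3 the C1qb share was 40.6% in border macrophage-like and 41.1% in MHC class II-high cells. In library 5 it was 31.9% and 41.7%, and in library 4 60.5% in border macrophage-like cells. The pooled gap was thus seen mainly in library 5. In dendritic-like cells C1qa made up 30.3% (25.2 to 35.7) and C1qb 34.7%, and in monocyte-like cells 17.7% (12.7 to 23.7) and 46.8%. The 16 C1q UMIs of neutrophil-like cells were 12.5% C1qa and 62.5% C1qb. Over all kept cells, the C1qb share was 54.3% in library 1 and 49.1% in library 4, the 2 libraries with the fewest UMIs, and 37.2%, 40.6% and 37.0% in libraries 2, 3 and 5. Within microglia-like cells alone it was 58.7%, 40.1%, 41.3%, 45.7% and 36.2% in libraries 1 to 5, so the higher share of library 1 was also present within that class. Cell by cell, the thinned counts of the chains were weakly correlated within a class (Pearson r from -0.0519 to 0.332 over 149 to 190 cells, as a description of sparse counts).

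Within microglia-like cells, 14 were MHC class II-high and held 173 C1q UMIs per 10000 (interval 153 to 195), against 141 (136 to 147) in the other 143. The 9 that carried activation genes held 114 (97.3 to 133), against 146 (141 to 152) in the rest. No library had 5 cells of either kind, so neither difference could be tested over libraries. Activation gene UMIs were more frequent in cells that reached no gate (27.7 per 10000) than in microglia-like cells (5.22). The cells without a gate held C1q at 112 UMIs per 10000 (107 to 117). The 9 cells thus do not stand for all cells with activation genes. Border macrophage-like cells held 131 C1q UMIs per 10000 where MHC class II was high (79 cells, interval 123 to 139) and 127 where it was low (70 cells, 119 to 135).

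The genes whose level was most like summed C1q over the 22 sums of library and class (Pearson r of log2 levels, 1205 genes with at least 100 UMIs) were Selenop (0.856), Canx (0.851), Ctss (0.843), Serinc3 (0.842) and Ctsd (0.842). Selenop encodes a secreted selenoprotein, Canx an endoplasmic reticulum chaperone, and Ctss and Ctsd lysosomal proteases. The sums share libraries and classes, so r describes them and carries no test.

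C4b, which encodes the C4 component cleaved next after C1q activation, was concentrated in border macrophage-like cells. They held 110 of the 184 C4b UMIs in kept cells, in 53 cells, with at most 7 in 1 cell. Their level was 6.69 UMIs per 10000 (interval 5.5 to 8.07), against 0.586 (0.293 to 1.05) in microglia-like, 1.01 in MHC class II-high, 0.391 in dendritic-like and 0.297 in monocyte-like cells and 0 in neutrophil-like cells. In edgeR, C4b rose by 3.25 on the log2 scale from microglia-like to border macrophage-like cells (SE 0.853, adjusted p = 0.0250). It was the 1 of 6 tested complement genes called higher, where 0.569% of all genes were, and 0 were called lower, where 0.265% were (0 at an unadjusted p under 0.05 and 0 by DESeq2). The other comparisons of C4b gave 0.43, -0.82, -1.14 and -4.30 for MHC class II-high, dendritic-like, monocyte-like and neutrophil-like cells and did not pass (edgeR adjusted p from 0.405 to 0.859). DESeq2 did not call C4b (adjusted p = 0.184), and over all genes it turned the balance from 15 higher and 7 lower to 11 and 22. C4b was known from earlier results of these data to be higher in macrophages with Pf4, so its direction is not independent evidence.

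By library, border macrophage-like cells held C4b at 7.39 and 6.94 UMIs per 10000 in libraries 3 and 5, from 55 UMIs each, and at 0 in library 4. The 13 such cells of libraries 1, 2 and 4 had 0 of 10656 UMIs, which allows up to 2.82 per 10000 (3 counts; exact upper limit 3.46), below the 7.16 (5.88 to 8.62) of libraries 3 and 5 together. Over all 139 kept cells of libraries 1 and 4 the count was 0 as well. The higher level thus rests on libraries 3 and 5, and without either of them the adjusted p was 0.999 and 0.955, at log2 fold changes of 2.91 and 3.03. The direction held in all 17 alternatives (2.56 to 3.87), and the call in 8 of them (adjusted p from 1.35e-05 to 0.999). Without library 3 the whole comparison called 0 genes in edgeR, where 18 had a higher and 40 a lower value at unadjusted p under 0.05.

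C4b has a near-identical neighbour, C4a, 65209 bases away on the same strand. Of all 50-base windows in the last 300 bases of the C4b transcript, 53% occur unchanged in a C4a transcript (GENCODE), so reads at the 3' end can fit both and the split between the pair is uncertain. C4a itself had 9 UMIs in kept cells, 5 of them in border macrophage-like cells. Among border macrophage-like cells, C4b was at 6.72 per 10000 where MHC class II was high and 6.66 where it was low. After thinning, 22.8% of border macrophage-like cells (interval 16.3 to 30.4) and 2.55% of microglia-like cells (0.698 to 6.39) held a C4b UMI. The levels most like C4b were those of Siglec1 (r = 0.901), Vcam1 (0.841), Ccl8 (0.811), Ccl12 (0.809) and Il4ra (0.786). Gate markers such as Mrc1 and Pf4 were not candidates. Siglec1 encodes a macrophage sialic acid receptor, Ccl8 and Ccl12 chemokines for monocytes.

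C3, the component on which all arms converge, was sparse, with 68 UMIs in 36 kept cells. Its highest count, 30 UMIs, was in MHC class II-high cells (0.945 per 10000, interval 0.637 to 1.35), spread over 16 cells and 4 libraries at 3.37, 0.518, 0.922 and 0.833 in libraries 1, 2, 3 and 5. Microglia-like cells had 3 UMIs (0.160, interval 0.0330 to 0.467) and dendritic-like cells 0, so that MHC class II-high cells were at least 4.03-fold higher than the limit of 3 counts in dendritic-like cells. The 4 UMIs of neutrophil-like cells (2.25, interval 0.613 to 5.76) and the 7 of monocyte-like cells (1.04) lay in 2 and 3 cells. Among cells between gates, the 11 C3 UMIs lay in 2 cells, 1 of which held 8. C3 could be tested in 3 alternatives, and passed once, in neutrophil-like cells with no margin between gates (5.38, edgeR adjusted p = 0.000442). That setting moves cells from between gates into the classes. The pooled neutrophil-like C3 level then went from 2.25 to 6.96 per 10000, so the call rests on very few cells.

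C3ar1, the receptor of the C3a fragment, was found in every class, with 505 UMIs. Levels were 6.08 UMIs per 10000 in border macrophage-like (interval 4.95 to 7.4), 5.04 in MHC class II-high and 4.48 in microglia-like cells, then 3.12 in monocyte-like, 1.56 in dendritic-like (0.955 to 2.41) and 1.13 in neutrophil-like cells. In microglia-like cells the libraries ranged from 1.61 to 6.61, which takes in the values of most other classes. C3ar1 fell by 1.66 from microglia-like to dendritic-like cells (SE 0.575, edgeR adjusted p = 0.0341), where libraries 2 to 5 held 0, 2.54, 0 and 1.06. The other 4 comparisons gave 0.64, 0.51, -0.64 and -1.98 for border macrophage-like, MHC class II-high, monocyte-like and neutrophil-like cells and did not pass. The dendritic-like call was kept in 10 of 17 alternatives, all of them negative, and was lost without library 3, 4 or 5 (adjusted p = 0.138, 0.0737 and 0.200).

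C5ar1, the receptor of C5a, was near the limit of detection. It had 51 UMIs in 39 cells, at 0.586 per 10000 in microglia-like (interval 0.293 to 1.05), 0.548 in border macrophage-like and 0.346 in MHC class II-high cells, and 0 UMIs in dendritic-like cells (upper limit 0.288). Neutrophil-like cells had the highest pooled level, 1.13, but from 2 UMIs (interval 0.136 to 4.07), and monocyte-like cells held 0.297 (0.0360 to 1.07), also from 2. The intervals of these 5 classes with a UMI overlap, so no order among them was detectable at this depth.

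Of the alternative arm, the pooled level of Cfp was highest in dendritic-like and that of Cfb in monocyte-like cells, though neither was set apart from neutrophil-like cells at this depth. Cfp, which encodes properdin, had 41 of its 69 UMIs in 20 dendritic-like cells, at 3.20 UMIs per 10000 (interval 2.30 to 4.35). Libraries 2 to 5 held 2.90, 5.67, 0 and 1.59, and the cell with the most held 12 UMIs. Microglia-like cells had 0 in all 5 libraries, so the dendritic-like level was at least 20-fold higher than the limit of 3 counts over the group (0.160 per 10000). The edgeR adjusted p was 0.000109, and the call held in all 14 alternatives, of 17, that could test Cfp. However, Cfp reached the 50 UMIs set for testing only through its dendritic-like UMIs. The other classes held 0 (microglia-like), 3 (border macrophage-like), 14 (MHC class II-high), 5 (monocyte-like) and 3 (neutrophil-like). The p-value and this tally are thus not read as support beyond the level itself. Cfp could not be tested with filterByExpr or without library 3 or 5, which held 29 and 9 of the dendritic-like UMIs. Whether the call holds without either library is thus not known. In the other classes Cfp was at 0.183 (border macrophage-like), 0.441 (MHC class II-high), 0.743 (monocyte-like) and 1.69 (neutrophil-like, from 3 UMIs). The neutrophil-like interval, 0.348 to 4.93, overlaps the dendritic-like one. In library 2 neutrophil-like cells held 3.17, against 2.90 in dendritic-like cells. None of the other classes passed against microglia-like cells (edgeR adjusted p = 0.700, 0.113, 0.0545 and 0.0545). MHC class II-high, monocyte-like and neutrophil-like cells did pass in 1, 5 and 5 alternatives. T or NK cell markers reached 26.0 UMIs per 10000 in the dendritic-like cells of 1 library, and their part in the Cfp level was not tested.

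Cfb, which encodes the protease subunit of the alternative C3 convertase, had only 31 UMIs, 18 of them in monocyte-like cells (2.67 per 10000, interval 1.59 to 4.23). These came from 5 cells, 1 of which held 9, and from libraries 3 (3.72) and 5 (3.32), with 0 in libraries 2 and 4. Microglia-like cells had 0, so the monocyte-like level was at least 16.7-fold higher than the limit of 3 counts over that group. MHC class II-high cells had 10 UMIs in 6 cells (0.315), border macrophage-like and dendritic-like cells 1 each (0.0608 and 0.0782). Neutrophil-like cells had 0, with an upper limit of 2.08 that overlaps the monocyte-like interval. Cfb was under the 50 UMIs set for the main test. With no filter on low counts it could be fitted, and was called higher in monocyte-like cells (edgeR adjusted p = 0.0279), on UMIs from 5 cells.

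**Figure D5:**
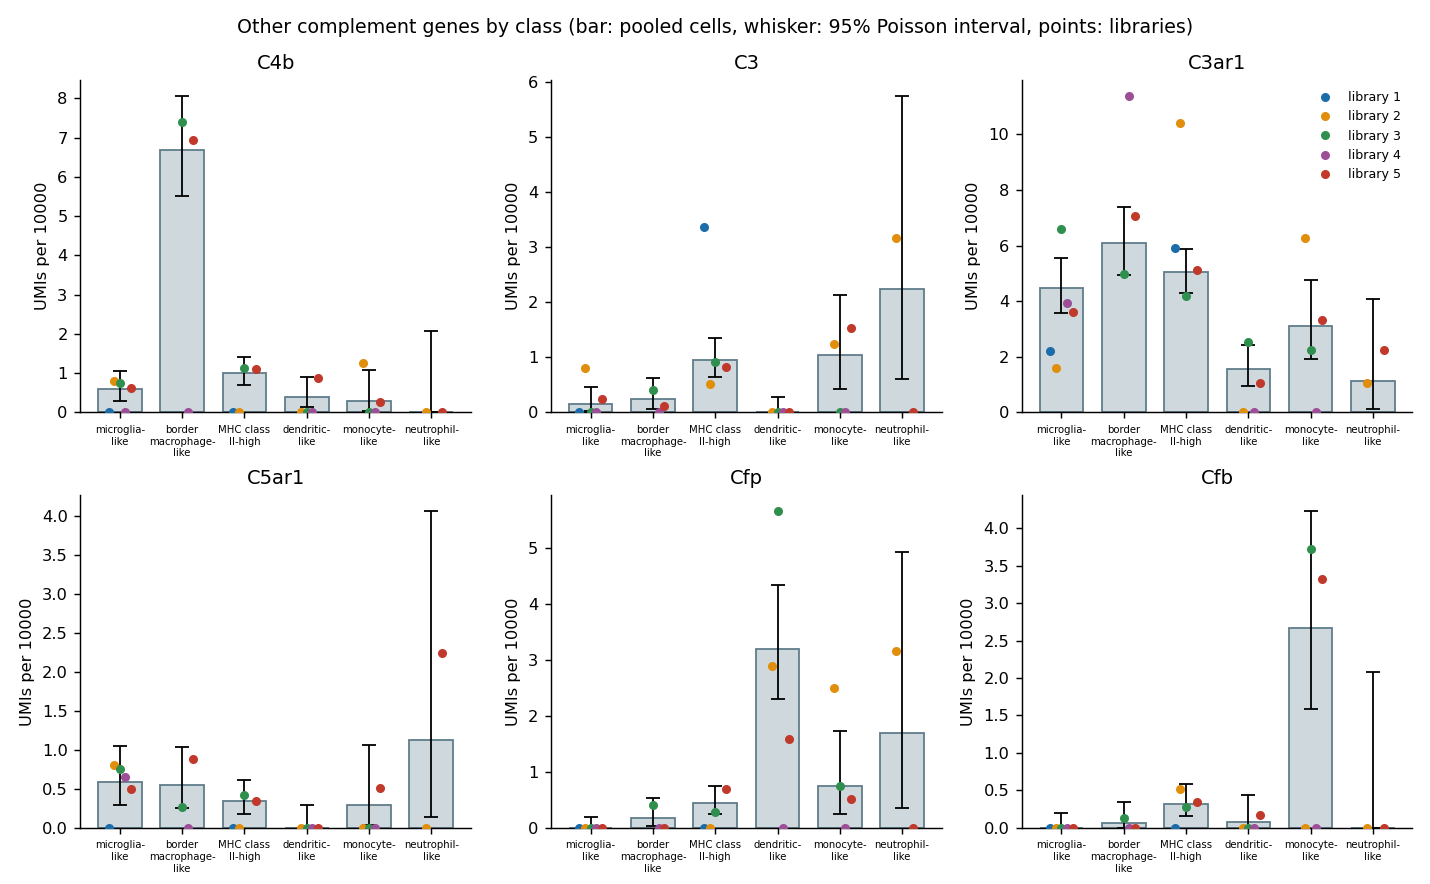
C4b, C3, C3ar1, C5ar1, Cfp and Cfb in UMIs per 10000 (vertical axes, each with its own scale) in the 6 classes, with bars for the pooled cells, whiskers for the exact Poisson 95% interval and points for libraries of at least 5 cells. C4b stands out in border macrophage-like cells in 2 of 3 libraries. Cfp had UMIs in dendritic-like cells in 3 of 4 libraries and Cfb in monocyte-like cells in 2 of 4, with intervals that overlap the neutrophil-like ones.

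Other complement genes were taken from a list of 50, of which 49 are in the tables and 22 had a UMI in kept cells. Of these, 8 had enough UMIs to be tested, among them the membrane regulator Cr1l, the C3 fragment receptor chains Itgam, Itgax and Itgb2, and Calr, Lrp1 and Cd93, cell proteins that have been described as C1q receptors or partners of them. None was called in border macrophage-like or neutrophil-like cells (edgeR, with 0 and 2 at an unadjusted p under 0.05, and 0 by DESeq2), none was called higher in any class, and the median log2 fold changes of the 8 were -0.95, -1.24, -1.36, -1.08 and -2.05 in border macrophage-like, MHC class II-high, dendritic-like, monocyte-like and neutrophil-like cells, beside -0.11, -0.05, -0.29, -0.37 and -3.31 over all genes. In dendritic-like cells Cr1l fell by 2.90 (adjusted p = 0.0208) and Lrp1 by 2.84 (adjusted p = 0.0102) in edgeR. Itgam fell by 1.63 in MHC class II-high cells (edgeR adjusted p = 0.0128), from 8.26 to 2.87 UMIs per 10000. Among the genes with the most UMIs were Calr (865), Itgam (541), Itgb2 (389) and Lrp1 (201). Calr was at 6.24 to 9.06 UMIs per 10000 in the 5 classes other than neutrophil-like cells, and Itgb2 at 2.13 to 5.63 in all 6.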

How the data were processed

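MARS-seq was run on single CD45high CD11bhigh brain cells in 5 libraries of 384 wells. The tables deposited by the authors give UMI counts, not normalized, for 52634 rows, of which 92 ERCC spike-in rows were left out. Per the submitters' processing notes, bcl2fastq 2.15.0.4 and build mm10 were used, and no aligner was named in what was read. Wells with 1 cell and at least 500 UMIs were kept. The authors excluded doublets in the sort, and no caller was run here.

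A cell joined the class whose summed markers were the largest multiple of a threshold (150 UMIs per 10000 for microglia, 20 border macrophage, 10 dendritic, 15 monocyte, 500 neutrophil), if that multiple was at least 1.5 times the next class's and rested on at least 2 marker UMIs. Cells that reached none but held 200 or more MHC class II UMIs per 10000 were called MHC class II-high. None of the 9 genes was used in a gate.

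UMIs were summed per library and class (at least 5 cells, 22 sums) and tested with edgeR 4.0.16 in R 4.3.3 (TMM, robust quasi-likelihood fit, library block, genes of at least 50 UMIs, threshold 0.05), checked on simulated counts. Thinning used 500 UMIs per cell. Python 3.11.15 (scipy 1.17.1) gave levels and exact 95% intervals. DESeq2 1.42.0, other filters, gates, depths and leaving out each library were the alternatives. All 9 genes are named, with their levels by class. For the other complement genes, the 5 with the most UMIs and those past the threshold are named, except for 1 that is not reported here, and for likeness the 5 highest correlations. The members, lists and gates were chosen with earlier results of these data known. Precision is limited by 53703 to 533433 UMIs in kept cells per library. RefSeq promoters and GENCODE vM21 gave positions.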

Additional observations from a re-analysis of the deposited data

Results flagged for a closer look

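Of 36 groups of 4 or 5 libraries, 5 had 1 library far from the rest by Dixon's criterion, which chance meets in about 1 in 20 groups of continuous values. A group was a complement gene, or the sum of the C1q chains, in a class. Groups of the sum depend on those of its chains. In MHC class II-high cells, library 1 held C1qb at 56.5 UMIs per 10000 (others 36 to 38.7) and C3 at 3.37 (others 0.518 to 0.922). In the other 3 groups library 5, the deepest, was the one with UMIs (5, 1 and 2) where the others had 0, which meets the criterion by construction and to which that rate does not apply: C4b in dendritic-like cells at 0.882, Cfb in dendritic-like cells at 0.176 and C5ar1 in monocyte-like cells at 0.51 UMIs per 10000.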

How the results depend on the processing

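The order of the classes by pooled summed C1q was the same under the 13 settings of filter, gate and left-out library, though dendritic-like and monocyte-like cells changed places after thinning, and border macrophage-like cells were above microglia-like cells by the mean over libraries. Of the fold changes of the 6 tested genes under the alternatives, 423 kept direction and side of the threshold, 17 lost a call, 24 gained one and 25 turned, all without a call on either side. The number of genes called moved most, and where no reason is given the cause was not tested. Against 22 in border macrophage-like cells, there were 8 with no filter on low counts, 67 at 300 UMIs per cell, 80 at 1000 UMIs, 34 without Gm42418, Gm26917 and mitochondrial genes, and 0 to 64 with 1 library left out. Against 103 in MHC class II-high cells, there were 171 by DESeq2, 170 without TMM, 52 with no filter, 49 without the library block, 162 at 300 UMIs, 231 at 1000 UMIs and 8 to 163 with 1 library left out. Against 352 in dendritic-like cells, there were 222 with filterByExpr (fewer genes tested), 177 with no filter, 230 without the block and 102 to 413 with 1 library left out. Against 175 in monocyte-like cells, there were 81 with no filter, 104 without the block, 369 at 300 UMIs, 72 with thresholds doubled, 271 with no margin and 42 to 222 with 1 library left out. Against 111 in neutrophil-like cells, there were 182 by DESeq2, 273 at 300 UMIs, 60 with thresholds doubled and 33 to 97 with 1 library left out. Summed C1q per 10000 moved to 177 in microglia-like cells with thresholds doubled, and without Gm42418, Gm26917 and mitochondrial genes to 173, 160, 111 and 10.3 in microglia-like, border macrophage-like, MHC class II-high and neutrophil-like cells; in the last it was 12 at 300 UMIs and 4.57 at 1000. C1qa in border macrophage-like cells turned to -0.007 by DESeq2, -0.028 with filterByExpr, -0.333 at 300 UMIs, -0.038 at 1000, -0.351 with thresholds halved, -0.185 with no margin, -0.193 without the Gm and mitochondrial genes, -0.069 with microglia marker-bearing cells left out of the MHC class II-high class (a setting chosen after seeing the data), and -0.184 to 0.272 with 1 library left out (below 0 without library 1, 2 or 5). There, C1qb turned to 0.011 without TMM and 0.071 with thresholds doubled, and C1qc to 0.380 with the latter. In MHC class II-high cells C1qa turned to 0.066 with no filter, C3ar1 to -0.113 at 300 UMIs, -0.191 at 1000, -0.109 with thresholds halved and -0.009 to 1.011 with 1 library left out (below 0 without library 2), and C4b to -0.004 with filterByExpr, -0.254 at 300 UMIs, -0.456 with thresholds halved and -0.207 to 0.613 with 1 library left out (below 0 without library 3 or 5). C4b in dendritic-like cells turned to 0.123 at 1000 UMIs. The neutrophil-like comparison has no value at 1000 UMIs, and comparisons within microglia-like cells could not be fitted, since no library held 5 cells of either subset. No paired analysis by treatment was possible because the labels give a single group. Classes were compared within libraries, since the library block stands in every main test. Depth limits C3, C5ar1, Cfb and Cfp most, with 31 to 69 UMIs each.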
